A study of Mus musculus with 4 samples.

Results

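The genes of the mouse major histocompatibility complex (MHC, called H2 in the mouse) and of antigen processing were followed in stimulated CD4+ T cells with and without the transcription factor Zfp281. They were chosen by name: every gene whose symbol starts with H2-, and 18 genes of peptide supply, peptide loading and MHC transcription. The table holds 52 such genes of 16718 in all. Of these, 3 encode classical class I heavy chains, 20 nonclassical class I genes, 10 belong to class II, 12 to the class I light chain and processing, 5 are transcriptional regulators, and 2 carry an H2- symbol outside these classes.

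Zfp281 conditional knockout cells (cKO) and wild-type cells (WT) were both naive CD4+ T cells of the mouse, stimulated for 4 hours with an antibody to CD3, the signalling part of the T cell receptor. The labels name 2 libraries of total RNA for each genotype, 4 in all, sequenced on a BGISEQ-500 instrument. The promoter driving the Cre recombinase, the strain, the age and the sex of the mice are not stated by the labels, so the H2 haplotype is unknown. Expression is given as 1 value per gene and genotype, in FPKM (a read level corrected for transcript length and depth), so no difference below has a replicate check.

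Class I molecules present peptides from inside the cell to CD8 T cells and are made by nearly all cells. A heavy chain, encoded by an H2 gene, pairs with the light chain beta-2 microglobulin and with a peptide that the proteasome cut, the transporter TAP carried into the endoplasmic reticulum, and the peptide-loading complex fitted. Class II molecules present peptides from outside the cell to CD4 T cells. They are made mainly by B cells, dendritic cells and macrophages, and mouse T cells, unlike activated human T cells, make little or none. NLRC5 drives class I transcription and CIITA class II transcription, both through the RFX proteins bound to a shared promoter module.

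Promoters are shown for some of the members that rose in cKO (H2-Q7, H2-D1, H2-K1, H2-Ob and H2-Aa) and for the light chain gene. Class I and class II control acts through this region. Each is the 250 bases before an annotated transcription start, on the gene's strand, from RefSeq on GRCm38.p6 (mm10). Capitals mark the letters CCAAT (the Y box bound by NF-Y), AGTGAAA (the core of an interferon response element), GGGATTC (within a kappaB element), TGACGT (the core of a cyclic AMP response element), GGGCGG (a GC box) and GGGAGGG (a G-rich run of the kind bound by Zfp281 and Sp1), each on either strand.
H2-Q7 (chr17:35438905-35439154, plus strand): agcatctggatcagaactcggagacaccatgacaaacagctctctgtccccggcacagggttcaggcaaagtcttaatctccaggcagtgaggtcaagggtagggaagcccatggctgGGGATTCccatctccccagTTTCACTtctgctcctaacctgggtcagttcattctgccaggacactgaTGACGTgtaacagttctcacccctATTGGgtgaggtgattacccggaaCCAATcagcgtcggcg
H2-D1 (chr17:35262844-35263093, plus strand): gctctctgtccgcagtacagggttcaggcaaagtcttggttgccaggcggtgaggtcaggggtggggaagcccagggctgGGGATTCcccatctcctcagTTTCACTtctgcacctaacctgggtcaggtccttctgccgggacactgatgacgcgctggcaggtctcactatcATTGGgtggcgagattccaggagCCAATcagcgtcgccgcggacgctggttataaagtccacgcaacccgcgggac
H2-K1 (chr17:34000348-34000597, minus strand): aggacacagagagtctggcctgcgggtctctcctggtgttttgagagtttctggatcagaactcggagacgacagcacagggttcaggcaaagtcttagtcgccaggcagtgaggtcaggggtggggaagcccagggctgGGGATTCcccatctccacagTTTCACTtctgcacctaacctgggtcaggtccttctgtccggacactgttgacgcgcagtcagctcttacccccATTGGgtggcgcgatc
B2m (chr2:122147437-122147686, plus strand): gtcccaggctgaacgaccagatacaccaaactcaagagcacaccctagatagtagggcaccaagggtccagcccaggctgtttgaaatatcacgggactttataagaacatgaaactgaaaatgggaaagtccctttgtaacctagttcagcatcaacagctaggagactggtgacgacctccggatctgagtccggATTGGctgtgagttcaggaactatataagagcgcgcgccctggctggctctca
H2-Ob (chr17:34238655-34238904, plus strand): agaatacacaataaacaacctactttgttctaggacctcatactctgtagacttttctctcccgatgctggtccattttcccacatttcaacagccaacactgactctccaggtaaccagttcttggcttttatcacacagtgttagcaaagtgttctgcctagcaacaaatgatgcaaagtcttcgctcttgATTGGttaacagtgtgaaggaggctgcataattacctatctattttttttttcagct
H2-Aa (chr17:34287824-34288073, minus strand): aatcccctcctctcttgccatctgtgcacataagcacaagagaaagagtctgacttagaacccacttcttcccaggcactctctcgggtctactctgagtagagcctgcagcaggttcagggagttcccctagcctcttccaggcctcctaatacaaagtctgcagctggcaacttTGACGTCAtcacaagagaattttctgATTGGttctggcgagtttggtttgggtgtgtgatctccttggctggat
Y box letters stood in the promoters of 24 of the 27 members at 1 FPKM or more that have a promoter in the table, against 40.8% of 8437 genes at that level. The kappaB letters stood in 5 of the 27, all of class I (H2-K1, H2-D1, H2-Q6, H2-Q7 and H2-T22), against 3.06% of these genes. The interferon response letters were found in 8 members, against 3.64%: the same 5, H2-Q4, H2-M3 and Rfx5. The cyclic AMP letters were found in 5 members (H2-Aa, Canx, H2-Q4, H2-Q7 and H2-T22), against 12.6%, and in H2-Aa they overlap on both strands. The GC box stood in 7 members, against 64.5%, none of them a class I or class II chain. The G-rich run was found in 4 members, H2-DMa, H2-Q2, Rfx5 and Rfxank, against 27.3% of genes. Elements of class I genes are partly copies of each other, as the sequences show, and a match of letters is not evidence of binding.

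The heavy chain genes resemble each other in coding sequence too, which bears on the class I values below to differing degrees. The same 60 coding bases of 6 class I genes are given from GENCODE M21, with capitals where a base differs from H2-Q7.
H2-Q7: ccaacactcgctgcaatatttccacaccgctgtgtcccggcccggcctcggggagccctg
H2-Q6: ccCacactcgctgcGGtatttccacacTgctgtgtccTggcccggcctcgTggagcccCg
H2-Q4: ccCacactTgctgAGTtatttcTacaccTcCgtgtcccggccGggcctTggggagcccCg
H2-K1: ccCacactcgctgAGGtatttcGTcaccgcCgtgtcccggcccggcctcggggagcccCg
H2-D1: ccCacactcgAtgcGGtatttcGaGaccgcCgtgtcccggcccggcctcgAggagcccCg
H2-T23: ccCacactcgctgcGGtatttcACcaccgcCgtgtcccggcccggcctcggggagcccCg
Over their whole coding sequences H2-Q7 was identical to H2-Q6 at 95.4% of aligned bases, to H2-Q4 at 90.8%, to H2-D1 at 89.8%, to H2-K1 at 88.2% and to H2-T23 at 82.2%. More distant were H2-M3, at 72.2% to H2-Q7, and H2-T22, at 71.7%. H2-K1 and H2-D1 were identical at 91.4%. Of all 50-base words in its transcripts, H2-Q5 shared 42.6% with another gene, H2-T22 42.8%, H2-Q7 34.9%, H2-Q6 32.0%, H2-Q4 24.3%, H2-D1 13.9% and H2-K1 12.1%. H2-T24 shared 3.17% and H2-M3 0.576%, whereas B2m and the class II chain genes H2-Aa, H2-Ab1 and H2-Eb1 shared none. How the authors' counting divided reads between class I genes is not given in the sources used here, so single values within the H2-Q and H2-T groups are uncertain. H2-Q8, H2-Q9, H2-L, H2-T9, H2-T10 and H2-K2 had no matching transcript for this comparison.

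The deletion itself was visible in the table. Zfp281 had 0.44 FPKM in cKO and 66.3 FPKM in WT. An estimated 17215653 reads stood behind the cKO values and 17373036 behind the WT values, and the 95% intervals below are exact Clopper-Pearson intervals on such estimated reads that cover counting error alone. Markers fitted the labelled cells: Cd3e stood at 314 FPKM in cKO and 339 FPKM in WT, Cd4 at 239.8 FPKM in cKO and 249.9 FPKM in WT, and Cd8a at 0.47 FPKM in cKO and 0.28 FPKM in WT. By the FDR rule given below, Cd8b1, the other CD8 chain gene, rose, with 17.8 FPKM in cKO and 11.5 FPKM in WT. Of 9 T cell markers 8 fell and 0 rose, where 16.9% of all genes were lower. Thy1 fell furthest, with 75.5 FPKM in cKO and 148.7 FPKM in WT, whereas Cd3e fell to 0.926 of WT and Cd4 to 0.960. Of 5 naive T cell markers 4 rose and 1 fell, where 19.9% of all genes were higher. The part of these shifts in the values below was not tested. In bulk RNA, fewer cells of a type and less RNA per cell cannot be told apart.

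Of the 52 members, 39 reached 1 FPKM in either genotype, and 33 of these were above WT in cKO and 6 below, against 5699 above and 5004 below of 10728 genes at that level. A member is said to rise or fall where its FDR was under 0.05 in the authors' deposited table, a comparison of 2 sets of reads and not of 2 conditions. By this measure 18 of the 39 rose (46.2%) and 5 fell (12.8%), against 19.9% of 10728 genes higher and 16.9% lower. On the log2(FPKM + 1) scale, used for every median change below, the members had a median change of 0.15 and all genes of 0.02. A median fold is instead that of the plain FPKM ratios. H2-Oa reached 1 FPKM in cKO only, and so could enter the count only by being higher there.

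Most of these changes were small, since abundant members passed at small folds, H2-K1 at 1.03-fold among them. With a ratio at least 25% above 1 asked for as well, of cKO over WT or of WT over cKO, 9 members rose and 1 fell, against 8.97% and 6.47% of all genes. At the 2-fold and FDR of 0.001 that separate the genes marked in the authors' deposited table, 2 members rose and none fell, against 0.587% and 0.559% of all genes. If the reads of each genotype varied by an assumed 10% (CV), 1 member would have risen, H2-Ob, and none fallen, against 0.764% and 0.699% of all genes.

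**Figure D1:**
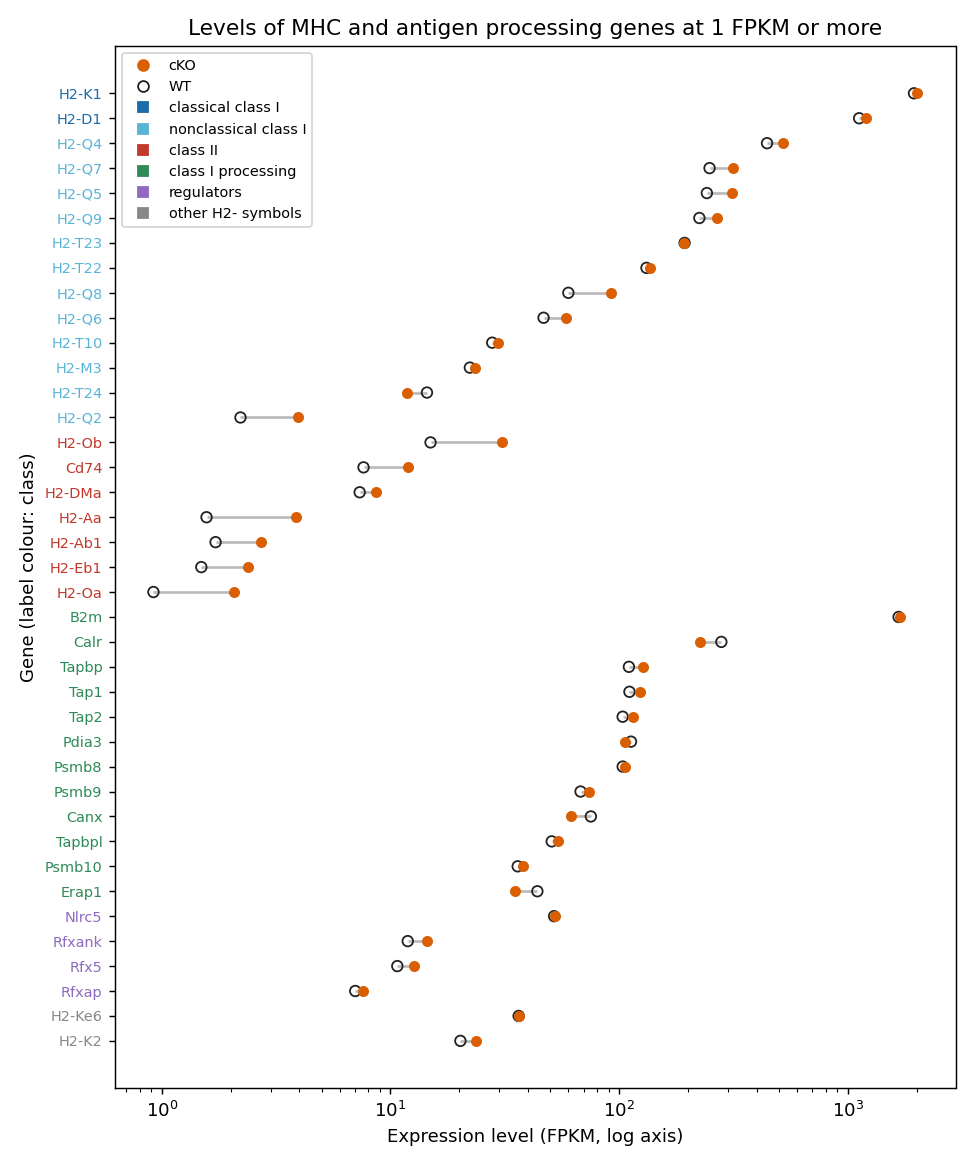
Level of each member at 1 FPKM or more in cKO (filled orange) and WT (open) cells, in FPKM on a log axis, grouped by class through the colour of the gene label. H2-K1, B2m and H2-D1 lie at 1122 FPKM or more, and of the class II genes only H2-Ob in both genotypes and Cd74 in cKO lie above 10 FPKM.

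The classical class I heavy chains were among the most abundant transcripts of these cells and differed little between genotypes. H2-K1 (NCBI gene 14972, GRCm38 chromosome 17, 33996012 to 34000619), which encodes the K molecule, had 2015 FPKM in cKO and 1949 FPKM in WT, rank 9 of all genes in both. Its fold was 1.03 (95% interval 1.02 to 1.05). H2-D1 (gene 14964, 35263094 to 35267497), which encodes the D molecule, had 1203 FPKM in cKO and 1122 FPKM in WT, 1.07-fold (1.06 to 1.09). Both passed, at an FDR of 2.34e-07 for H2-K1 and 1.14e-18 for H2-D1 in the authors' deposited table, on an estimated 57548 and 35768 reads in cKO and 56162 and 33655 in WT. H2-L, the third classical gene, was listed at 0 in cKO and at 0.12 FPKM, or 2 reads, in WT. The light chain gene B2m (gene 12010, chromosome 2, 122147687 to 122153082) stood at 1697 FPKM in cKO and 1669 FPKM in WT and did not pass, at 1.02-fold (0.999 to 1.03). The level of H2-K1 was 1.19 times that of B2m in cKO and 1.17 times in WT.

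Among nonclassical class I genes, the H2-Q group was higher in cKO and the H2-T genes other than H2-T24 were close to their WT level. Of 20 nonclassical genes, 12 reached 1 FPKM, and of these 7 rose (58.3%) and 1 fell (8.33%). The shares of all genes were 19.9% higher and 16.9% lower. All 7 that rose were H2-Q genes, whose single values are uncertain as given above, so they cannot be read as 7 separate results. The Q region encodes the Qa antigens, among them Qa-2, which H2-Q7 and H2-Q9 encode. H2-Q4 had 519 FPKM in cKO and 444 FPKM in WT, 1.17-fold (1.144 to 1.197). H2-Q7 (gene 15018, 35439140 to 35443773) had 316 FPKM in cKO and 248.7 FPKM in WT, 1.27-fold (1.23 to 1.31), with an FDR of 8.53e-43 in the authors' deposited table. H2-Q5, a transcribed pseudogene in the RefSeq table, had 311 FPKM in cKO and 242 FPKM in WT. These genes moved by similar factors, between 1.17 and 1.29.

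The remaining H2-Q genes at this level went the same way with more spread. H2-Q9 had 268 FPKM in cKO and 224 FPKM in WT, 1.19-fold (1.15 to 1.24). H2-Q8 had 92.5 FPKM in cKO and 60.01 FPKM in WT, 1.54-fold (1.42 to 1.67), and H2-Q6 had 58.8 FPKM in cKO and 46.8 FPKM in WT, 1.26-fold (1.14 to 1.38). The low gene H2-Q2 had 3.96 FPKM in cKO and 2.21 FPKM in WT, 1.79-fold (1.201 to 2.66) on 74 and 42 reads. H2-Q8 and H2-Q9 are placed off the primary chromosome 17 sequence in the RefSeq table, so their position is not used here. Because reads of H2-Q6 to H2-Q9 can be exchanged, their estimated reads were also summed, giving 17270 in cKO and 13863 in WT, 1.26-fold (1.23 to 1.29). H2-K1 and H2-D1 summed gave 1.05-fold (1.04 to 1.06).

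The H2-T genes encode ligands of natural killer and gamma delta T cell receptors. H2-T23, which encodes Qa-1, a ligand of the inhibitory receptor CD94/NKG2A, had 192.9 FPKM in cKO and 193.4 FPKM in WT. Its fold was 0.997 (0.956 to 1.04). H2-T22, whose product is recognised by some gamma delta T cells, had 136.4 FPKM in cKO and 131.8 FPKM in WT, and its relative H2-T10 had 29.4 FPKM in cKO and 27.9 FPKM in WT. Neither passed. H2-T24 fell, with 11.8 FPKM in cKO and 14.5 FPKM in WT, to 0.816 of WT (0.718 to 0.926), at an FDR of 0.00836 in the authors' deposited table. The reads of these 4 genes summed to a fold of 1.01 (0.983 to 1.04), and those of the 6 abundant H2-Q genes to 1.23 (1.21 to 1.24). These sums were formed after the values were seen and describe them, and none of the H2-Q genes passed at the assumed CV of 10%. H2-M3, which presents formylated bacterial peptides, had 23.4 FPKM in cKO and 22.3 FPKM in WT and did not pass.

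Another 8 nonclassical genes stayed under 1 FPKM in both genotypes, H2-Q10, H2-M2, H2-T9, H2-Q1, H2-T3, H2-Bl, H2-M10.2 and H2-M5. Their highest value was 0.64 FPKM, for H2-Q10 in cKO. H2-T9 was listed at 0.26 FPKM in cKO, or 7 reads, and at 0 in WT, and its FDR of 0.033 in the authors' deposited table was the lowest of these genes. The values of H2-T3 and H2-Q1 were equal, 0.23 FPKM in cKO and 0.07 FPKM in WT for each.

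**Figure D2:**
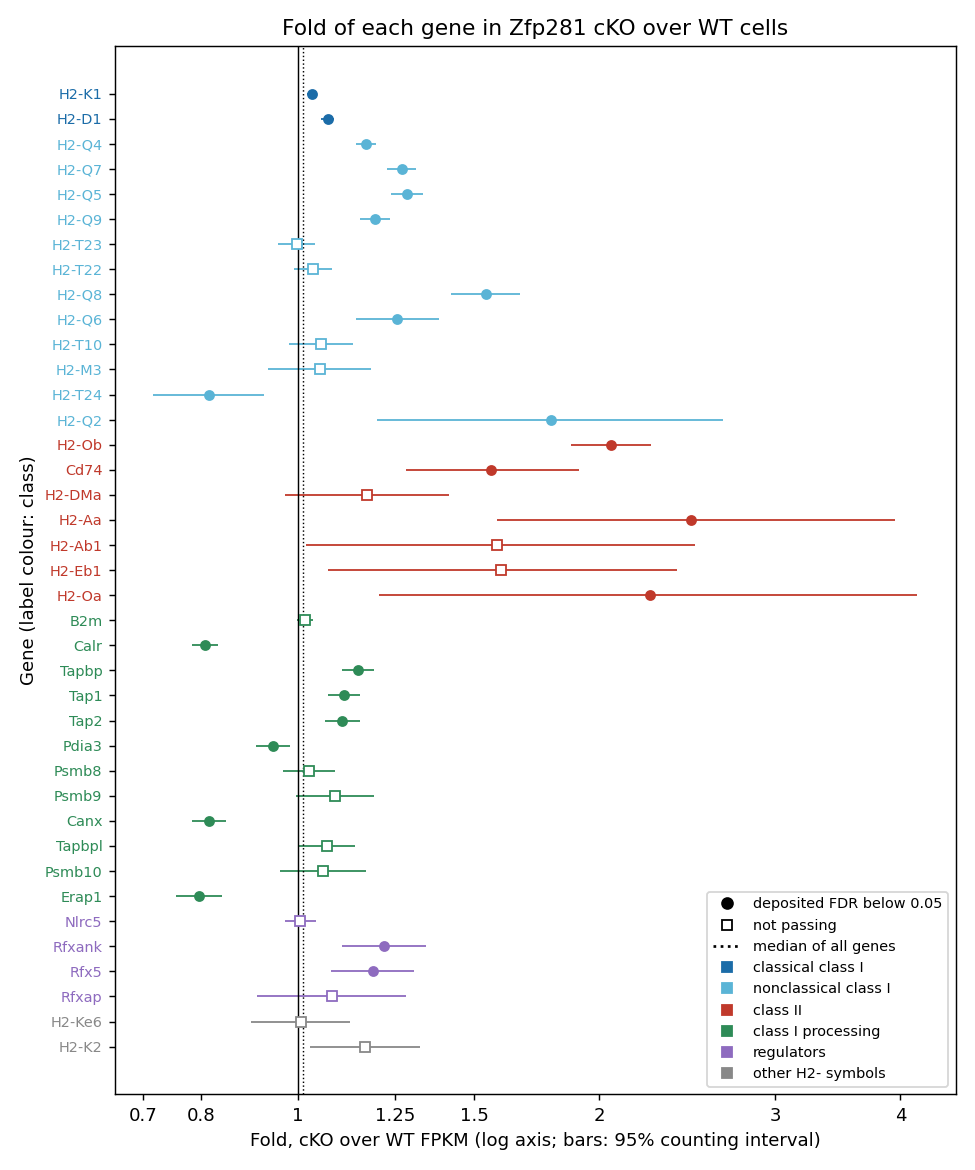
Fold of each member at 1 FPKM or more, cKO over WT, on a log axis with 95% counting intervals, by class. Filled circles have a deposited FDR below 0.05 and open squares do not, and the dotted line is the median of all genes. The 7 H2-Q genes and the 7 class II genes lie above 1, whereas Calr, Canx, Pdia3 and Erap1 lie below it.

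Class II genes had a median fold of 1.60, at levels far below those of class I. The median fold was 1.18 for nonclassical class I, 1.05 for classical class I and 1.04 for processing genes. As median change (log2), which the added 1 FPKM lowers most at low levels, the values were 0.58, 0.24, 0.07 and 0.06 in the same order. All 7 class II genes that reached 1 FPKM were above WT and 4 rose (57.1%), where 19.9% of all genes were higher. Of these 4, H2-Oa reached 1 FPKM in cKO only, and so could be counted only as higher. H2-Ob (gene 15002, 34238905 to 34245908), which encodes the beta chain of DO, an inhibitor of class II peptide exchange, had 30.8 FPKM in cKO and 15.0 FPKM in WT. This was 2.05-fold (1.88 to 2.25) on 1418 and 696 reads, with an FDR of 6.83e-56 in the authors' deposited table. H2-Oa, which encodes the alpha chain of DO, had 2.07 FPKM in cKO and 0.92 FPKM in WT, 2.25-fold (1.21 to 4.16) on 37 and 17 reads. The level of the beta chain gene was 14.9 times that of the alpha chain gene in cKO and 16.3 times in WT.

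The classical class II chains were low in both genotypes. H2-Aa (gene 14960, 34282744 to 34287823), the alpha chain gene of the A molecule, had 3.88 FPKM in cKO and 1.57 FPKM in WT, 2.47-fold (1.58 to 3.95) on 71 and 29 reads. Its partner H2-Ab1 had 2.72 FPKM in cKO and 1.72 FPKM in WT and did not pass, at an FDR of 0.109 in the authors' deposited table. H2-Eb1, the beta chain gene of the E molecule, had 2.38 FPKM in cKO and 1.49 FPKM in WT, at an FDR of 0.0607 in that table. Summed over these 3 genes, the fold was 1.83 (1.44 to 2.34). The level of H2-K1 was 519 times that of H2-Aa in cKO and 1241 times in WT. Cd74, the invariant chain that guides class II molecules through the cell, had 11.9 FPKM in cKO and 7.63 FPKM in WT, 1.56-fold (1.28 to 1.91). H2-DMa, the alpha chain gene of the peptide editor DM, had 8.61 FPKM in cKO and 7.34 FPKM in WT and did not pass. H2-DMb1, H2-DMb2 and H2-Eb2 were under 1 FPKM, with 0.50 FPKM for H2-DMb2 in cKO as the highest value.

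Most listed markers of cells that make class II were above WT in cKO, but most of these markers were under 1 FPKM in both genotypes. Of 14 B cell markers, 12 are in the table and 11 of these were above WT, with a summed level of 6.01 FPKM in cKO and 4.19 FPKM in WT. Cd79a alone reached 1 FPKM, at 2.44 FPKM in cKO and 1.93 FPKM in WT, and did not pass. Pax5 stood at 0.34 FPKM in cKO and was listed at 0 in WT. Of 13 monocyte, macrophage and dendritic cell markers in the table, 10 were above WT, with sums of 39.9 FPKM in cKO and 33.6 FPKM in WT, most of it Cst3. Below WT were Xcr1, Cd14 and Csf1r, at 0.30, 0.17 and 0.12 FPKM in cKO and 0.44, 0.28 and 0.16 FPKM in WT. Lyz2 rose, to 1.09 FPKM in cKO against 0.22 FPKM in WT, and so did Zbtb46, to 1.58 FPKM in cKO against 0.56 FPKM in WT. Both reached 1 FPKM in cKO only, so neither could have been called lower. The part of such cells in the class II values was not tested. Klrd1, the highest NK cell marker, rose as well, with 6.28 FPKM in cKO and 3.62 FPKM in WT.

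**Figure D3:**
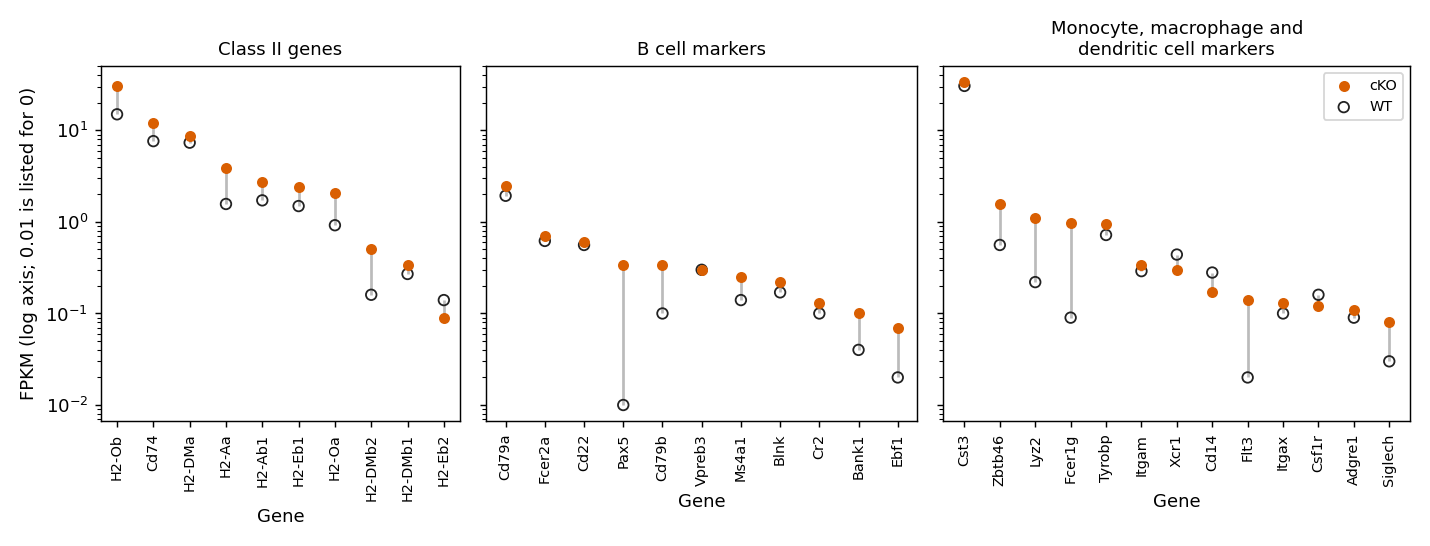
Level of class II genes, 11 B cell markers and each monocyte, macrophage or dendritic cell marker in cKO (filled orange) and WT (open), in FPKM on a log axis where 0.01 is listed for 0. The highest gene of each panel is H2-Ob at 30.8 FPKM in cKO and 15.0 FPKM in WT, Cd79a at 2.44 FPKM in cKO and 1.93 FPKM in WT, and Cst3 at 33.9 FPKM in cKO and 30.6 FPKM in WT.

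Genes that carry and load class I peptides went in opposite directions. The transporter genes rose together: Tap1 had 123.5 FPKM in cKO and 111.0 FPKM in WT, 1.11-fold (1.07 to 1.15). Tap2 had 114.9 FPKM in cKO and 103.7 FPKM in WT, also 1.11-fold (1.06 to 1.15). Tapbp, which encodes tapasin, the bridge between TAP and the heavy chain, had 126.8 FPKM in cKO and 110.4 FPKM in WT, 1.15-fold (1.11 to 1.19). Its relative Tapbpl, a peptide editor, had 54.3 FPKM in cKO and 50.8 FPKM in WT and did not pass.

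The general chaperones of the loading complex fell. Calr, encoding calreticulin, had 226 FPKM in cKO and 280 FPKM in WT, 0.808 of WT (0.784 to 0.833), at an FDR of 1.11e-41 in the authors' deposited table. Canx, encoding calnexin, had 61.4 FPKM in cKO and 75.3 FPKM in WT, 0.816 of WT (0.785 to 0.849). Pdia3, the disulfide isomerase ERp57, had 106.5 FPKM in cKO and 112.8 FPKM in WT, 0.945 of WT (0.908 to 0.982). Erap1, the aminopeptidase that trims peptides in the endoplasmic reticulum, had 35.0 FPKM in cKO and 43.9 FPKM in WT, 0.797 of WT (0.755 to 0.841). It was the only member that fell with a WT level at least 25% above the cKO level.

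The 3 immunoproteasome subunits, which replace the standard catalytic subunits under interferon, did not pass. Psmb8 had 106.5 FPKM in cKO and 103.8 FPKM in WT, 1.03-fold (0.967 to 1.09). Psmb9 had 74.0 FPKM in cKO and 67.9 FPKM in WT, 1.09-fold (0.996 to 1.19), and Psmb10 had 38.2 FPKM in cKO and 36.0 FPKM in WT. Psmb9 and Tap1 lie head to head on chromosome 17 and are transcribed away from each other. Over all 12 light chain and processing genes 3 rose, 4 fell and 5 did not pass, with a median change of 0.06 (log2). Of all genes, 19.9% were higher and 16.9% lower, so the share that rose was near that of all genes.

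Of the regulators, Nlrc5 was level and Ciita was scarcely detected. Nlrc5 had 52.3 FPKM in cKO and 52.0 FPKM in WT, 1.01-fold (0.972 to 1.04) on 6321 and 6337 reads. Ciita had 0.08 FPKM in cKO and 0.09 FPKM in WT, or 7 and 8 reads, 0.889-fold (0.273 to 2.79). So few reads cannot tell folds within that interval apart. Rfxank rose, with 14.5 FPKM in cKO and 11.9 FPKM in WT, 1.22-fold (1.11 to 1.34). Rfx5 also rose, with 12.7 FPKM in cKO and 10.7 FPKM in WT, 1.19-fold (1.08 to 1.31). Rfxap, the third subunit of the RFX complex, had 7.59 FPKM in cKO and 7.02 FPKM in WT and did not pass. The class I relative H2-K2 had 23.6 FPKM in cKO and 20.2 FPKM in WT, and H2-Ke6, an enzyme gene named for its place in the MHC, had 36.6 FPKM in cKO and 36.4 FPKM in WT. Neither passed.

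Within the MHC interval of chromosome 17, from H2-K2 to H2-M2 (33974659 to 37483554), 24 members and 84 other genes reached 1 FPKM. Of the 24 members, 12 rose and 1 fell, and of the 84 other genes 22 rose and 13 fell, or 26.2% and 15.5%. The shares of all genes were 19.9% higher and 16.9% lower. The median change was 0.18 (log2) for the members and 0.05 for the other genes.

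**Figure D4:**
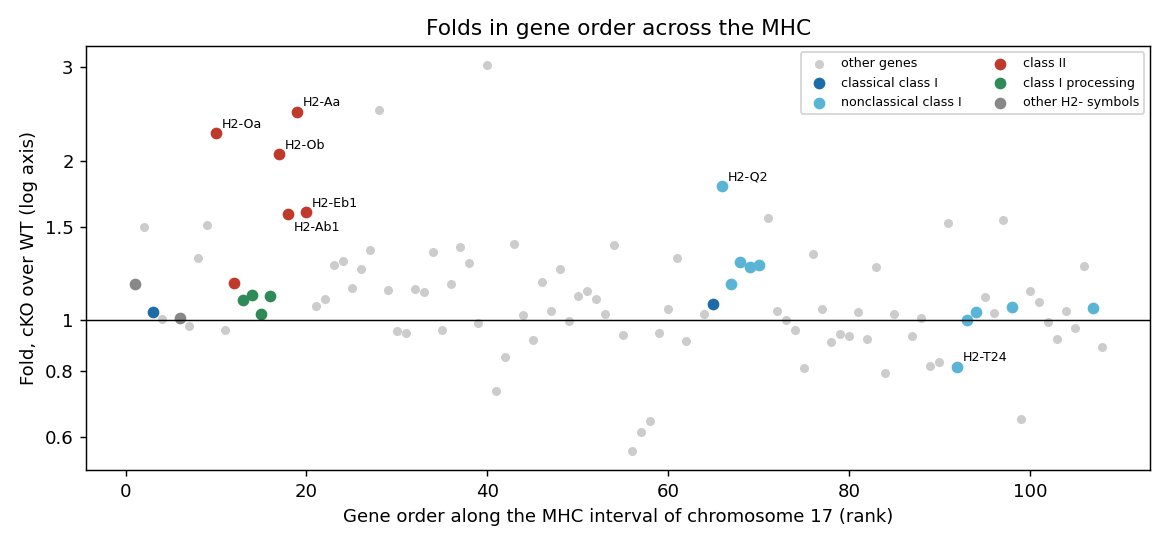
Fold, cKO over WT on a log axis, of genes at 1 FPKM or more in their order along the MHC interval of chromosome 17, with members coloured by class and other genes in grey. The class II genes H2-Oa, H2-Ob and H2-Aa lie above 2-fold, as do 2 other genes, the H2-Q genes between 1.17-fold and 1.79-fold, and the H2-T genes between 0.816-fold and 1.06-fold. MicroRNA genes listed at 0 in 1 genotype lie off the axis.

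Other genes of these pathways were counted by lists. In the interferon gamma and class I induction list 11 of 17 genes rose (64.7%) and 2 fell (11.8%), with a median change of 0.15 (log2), where 19.9% of all genes were higher and 16.9% lower. Ifngr1, the ligand-binding chain of the interferon gamma receptor, had 251 FPKM in cKO and 136 FPKM in WT, 1.84-fold (1.78 to 1.91). Ifngr2, the other chain, had 44.5 FPKM in cKO and 32.9 FPKM in WT, 1.35-fold (1.254 to 1.461), and rose too. The kinase genes Jak1 and Jak2 rose 1.11-fold and 1.16-fold, and Usf1, an E-box factor, rose 1.44-fold. Irf1, a transcription factor of the interferon response, had 102.6 FPKM in cKO and 93.8 FPKM in WT, and rose. Sp1 fell to 0.894 of WT and Irf8 to 0.765. With a ratio at least 25% above 1 asked for as well, in either direction, 4 of the 17 genes remained. Ifngr1, Ifngr2 and Usf1 rose and Irf8 fell, against 8.97% of all genes higher and 6.47% lower. The list names 18 genes, and 17 are in the table. The gene without a value is Ifng, which encodes interferon gamma itself.

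In the list of other class I loading and peptide supply genes 1 of 22 rose (4.55%) and 5 fell (22.7%), the share that fell being near the 16.9% of all genes, with a median change of 0.01 (log2). The 5 that fell were the chaperone genes Hspa5 and Hsp90b1, the proteasome activator gene Psme3, the translocon gene Sec61a1 and the aminopeptidase gene Lap3. Hspa5 had 220 FPKM in cKO and 273 FPKM in WT, 0.808 of WT (0.787 to 0.830), the same factor as Calr. Lap3 had 18.3 FPKM in cKO and 27.2 FPKM in WT. The gene that rose was Uggt1, a glycoprotein folding sensor, 1.06-fold (1.02 to 1.11). The standard proteasome subunits Psmb5, Psmb6 and Psmb7 did not pass, with folds of 0.9498, 0.968 and 0.991.

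Of 11 other class II pathway genes at 1 FPKM or more, 4 rose and none fell, with a median change of 0.14 (log2), where 19.9% of all genes were higher and 16.9% lower. The lysosomal proteases Ctsd, Lgmn and Ctsb rose 1.34-fold, 1.87-fold and 1.24-fold, and Cd63, a protein of the compartment where class II is loaded, had 1.62 FPKM in cKO and 0.64 FPKM in WT. Cd63 reached 1 FPKM in cKO only, and so could be called only as higher. Ctss, the protease that trims the invariant chain, had 76.3 FPKM in cKO and 74.6 FPKM in WT and did not pass. Among 13 factors that assemble on the shared promoter module 5 rose and 2 fell, with a median of 0.02 (log2). Crem, Rfx3 and the coactivator gene Crebbp rose 1.35-fold (1.28 to 1.42), 1.24-fold and 1.07-fold. Atf1 and the remodelling ATPase gene Smarca4 fell to 0.855 and 0.918 of WT, whereas the NF-Y subunit genes Nfya, Nfyb and Nfyc did not pass. Of 5 class I-like genes outside the MHC at 1 FPKM or more, 1 rose and none fell, a share like the 19.9% of all genes. The gene that rose was Cd1d1, with 16.8 FPKM in cKO and 12.7 FPKM in WT, 1.32-fold (1.16 to 1.51). CD1d presents lipids to natural killer T cells.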

How the data were processed

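RNA of naive CD4+ T cells was sequenced and mapped to mm10 with Bowtie2 2.2.5, per the submitters' processing notes. No label or header names the quantification tool, the annotation or the test. The deposited table holds 1 FPKM value per gene and genotype, and the authors list 0.01 for 0. The header calls the values expression, and the unit FPKM was read from how they scale with length and depth. The authors' log2 fold change is that of the deposited FPKM values. P-values are those the authors deposited. Their deposited FDR is treated as a score, since it reaches 1.03. Whether an FPKM column averages libraries or pools them is not stated in the file headers.

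Reads were estimated from FPKM, length less 35 bases and 56.7 FPKM bases per read. These settings and the depth ratio of cKO to WT, 0.991, were fitted to the deposited p-values. A test in the manner of Audic and Claverie on these reads gave log10 p-values that correlated with the deposited ones at r = 0.999 across 16707 genes, which are not independent and to which it had been fitted. It allows no variation between libraries. The read test was also run on simulated reads with counting error alone. That run, whose outcome is not reported here, does not bear on variation between libraries. Promoter motifs are short cores, set after longer forms had been searched, and a gene counts if any annotated start has one; 1 start is printed. The members, gene lists and rules were chosen with earlier results of these data known. Every member at 1 FPKM or more is named, and from each list up to 5 passing genes with the smallest p-value; Psmb5, Psmb6, Psmb7, Irf1, Sp1, Irf8, Uggt1, Ctss, Nfya, Nfyb, Nfyc and the named markers were added after their values were seen, as were the sums of reads. Some genes counted in the lists are not reported here by name. The symbols of 24 genes that had become dates were restored by gene ID. Python 3.11.15, SciPy 1.17.1 and MAFFT 7.526 were used. Alternatives changed the pseudocount, the filter on low levels, the size asked for, the centring and the variation assumed (CV of 10%).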

Additional observations from a re-analysis of the deposited data

How the results depend on the processing

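No paired analysis was possible because the table holds 1 value per genotype and none per library, and for the same reason no library could be left out. Members called higher numbered 9 with a size of at least 25%, 2 at the authors' size and FDR, 1 with an assumed CV of 10% and, as an alternative chosen after seeing the data, 9 of 25 members with under 10% of their 50-base words shared with another gene, against 18 of 39 in the report. Members called lower numbered 1, 0 and 0 under the first 3 of these and 5 of 25 under the last, against 5 of 39 in the report. The 9 called higher under the last were Cd74, H2-Aa, H2-Oa, H2-Ob, Rfx5, Rfxank, Tap1, Tap2 and Tapbp, with no class I heavy chain gene among them. H2-Q8 and H2-Q9 are left out there because they had no transcript to compare. Without the filter on low values 19 were higher and 5 lower, and at 10 FPKM or more 15 and 5. With the median change of all genes (0.02, log2) set to 0, 18 were higher and 5 lower, all 39 members kept their side of the threshold, and Nlrc5 and H2-Ke6, not called, moved to just below 1, at 0.9946-fold and 0.9954-fold. With an assumed CV of 10%, 22 members no longer passed, and the adjusted p of the recomputed test was 0.000417 for H2-Ob, 0.0569 for H2-Aa and 0.172 for H2-Q8. With no filter the median of classical class I genes was 0.048 (log2), since H2-L then enters it. Over the alternatives run, the median (log2) of nonclassical genes ranged over 0.20 to 0.24, of class II genes 0.45 to 0.79, of processing genes 0.04 to 0.06 and of all members 0.10 to 0.15. Depth limits H2-Aa, H2-Ab1, H2-Eb1, H2-Oa, H2-Q2 and members under 1 FPKM, which rest on fewer than 100 reads each.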
